A study of Mus musculus with 12 samples.

Results

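The respiratory chain and ATP synthase genes examined here comprise the subunits of complexes I to V of oxidative phosphorylation. They were chosen by gene name (Nduf, Sdh, Uqcr, Cox4 to Cox8, Atp5 and the mt- messenger RNAs) among protein-coding genes, by a rule that reads only the gene name and class. Of 41709 genes in the count tables, 21833 of them protein coding, 102 were members, 89 encoded in the nucleus and 13 on the mitochondrial chromosome. Complex I accounted for 40 nuclear and 7 mitochondrial members, complex II for 4 nuclear members, complex III for 8 and 1, complex IV for 19 and 3, and complex V for 18 and 2, respectively.

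Complexes I and II pass electrons from NADH and succinate to ubiquinone, complex III hands them to cytochrome c, complex IV reduces oxygen, and complex V (ATP synthase) uses the resulting proton gradient to make ATP. Most subunits are encoded in the nucleus and imported, whereas some core membrane subunits of each complex but complex II are encoded by the mitochondrial DNA. This DNA is transcribed as long polycistronic RNAs, which are cut into single messengers. Dendritic cells activated by LPS, a ligand of TLR4, are known to depend increasingly on glycolysis, and the enzyme encoded by Acod1 then makes itaconate, an inhibitor of complex II.

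Bone marrow-derived dendritic cells (BMDCs) were grown for 10 days with GM-CSF from mice homozygous for a CD18 allele with a floxed exon 3. CD18 (gene Itgb2) is the common β chain of the β2 integrins. CD18 CD11c cKO mice (CD18ΔCD11c in the labels, titled fl/fl Cre+) in addition carried Cre driven by the CD11c promoter, and CD18fl/fl mice (fl/fl Cre-) carried none, the allele having been made in embryonic stem cells of C57BL/6N origin. Cells of both genotypes were left untreated or received 100 ng/mL LPS for 24 h according to the labels (overnight according to the methods of the study), MHCII+ cells were isolated, and poly(A)-selected RNA was sequenced, with 3 libraries for each of 4 groups. The ages of the mice are not given in the sources used here, nor is it stated whether libraries came from separate mice or cultures, so p-values measure only the spread between these libraries, which may be technical.

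Libraries held 29689149 to 34037178 gene reads, so that 3 reads corresponded to 0.0881 to 0.101 CPM (counts scaled to a common library total). Levels below are CPM after TMM scaling over all 12 libraries. The deletion was visible in Itgb2, at 382, 420 and 379 CPM in unstimulated CD18fl/fl against 121, 163 and 190 CPM in unstimulated CD18 CD11c cKO BMDCs, and at 167, 171 and 267 against 114, 89.7 and 119 CPM after LPS. With the replicate number as a block, its log2 fold change was -1.29 (adjusted p = 0.0039) and -0.91 (adjusted p = 0.020), and without the block it did not pass (adjusted p = 0.089 and 0.43). Reads were counted over all exons, of which 1 is floxed, and Itgb2 reads were still present in the knockout libraries. Of 10 dendritic cell markers, 9 were above 1 CPM in every library, as were 9 of 9 macrophage markers. The 4 libraries numbered 3 stood apart from the others: across genes, their deviations from the group means correlated at -0.32 to -0.57 with those of replicates 1 and 2, where deviations in a group sum to 0 and some must be negative. In these 4 libraries the 5 B cell markers summed to 0.636 to 2.54 CPM, against 8.64 to 138 CPM in the others. Dendritic markers differed too, though not in 1 direction. Flt3 had 0.227 to 2.25 CPM against 9.22 to 35.5 CPM and Itgax 284.5 to 680 CPM against 30.8 to 210 CPM. Zbtb46 overlapped, at 19.5 to 33.3 CPM and 20.9 to 37.2 CPM. The neutrophil marker S100a9 had 0.0763 to 0.954 CPM against 11.5 to 523 CPM. Genes of the mast cell list did not move together. Cpa3 reached 15.5 to 115 CPM against at most 5.94 CPM, whereas Kit had 0.578 to 2.62 CPM against 5.99 to 29.3 CPM. Each result is therefore also given from replicates 1 and 2 alone where that changes it.

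Most members were well expressed. Of the 89 nuclear members, 81 passed the filter on low counts in each comparison, and so did all 13 mitochondrial members. The 8 left out were Cox4i2, Cox7b2, Cox8b, Cox8c, Ndufa4l2, Ndufb11b, Cox5b-ps and the first of 2 entries for Atp5o, which stayed at or below 0.446 CPM in every library. Per kilobase of exon, mitochondrial messengers of complex IV and V were the most abundant members: in unstimulated CD18fl/fl BMDCs, mt-Co3 reached 5275 ± 2280, mt-Co1 3787 ± 860 and mt-Atp6 3144 ± 1850 CPM per kilobase (mean ± SD, n = 3). The highest nuclear level per kilobase in complex IV was that of Cox4i1, a regulatory subunit, at 742 ± 83.7, followed across the other complexes by 657 ± 130 for Atp5e (ε subunit of ATP synthase), 517 ± 160 for Uqcrh (hinge protein of complex III), 247 ± 42.4 for Ndufa7 and 141 ± 16.1 for Sdhd. Cox4i1 and Atp5e, as well as Atp5e and Uqcrh, neighbours in this order, did not differ beyond their spread. Complex I messengers of the mitochondrial DNA were lower than those of complex IV, from 209 ± 68.5 (mt-Nd4l) to 939 ± 154 (mt-Nd3) CPM per kilobase.

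The 13 mitochondrial members lie on a chromosome of 16299 bases and overlap at 4 places (GRCm39). Genes of the same strand share 43 bases between mt-Atp8 and mt-Atp6, 7 bases between mt-Nd4l and mt-Nd4 and 1 base between mt-Atp6 and mt-Co3, while mt-Nd6, the only member on the opposite strand, shares 14 bases with mt-Nd5. The library kit does not mark the strand, so reads of mt-Nd5 and mt-Nd6 within these 14 bases cannot be told apart. Over the rest of mt-Nd6, RNA from the opposite strand would also be counted as mt-Nd6. The levels and calls of mt-Nd6 below may include such RNA, which was not tested. The largest overlap, at chrM:7927-7969, is shown because both ATP synthase messengers are counted over it; capitals mark the start codon of mt-Atp6.
mt-Atp8/mt-Atp6 overlap: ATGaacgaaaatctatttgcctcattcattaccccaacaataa

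The first question was whether loss of CD18 shifted these genes in unstimulated BMDCs. Nuclear subunits were mostly higher in CD18 CD11c cKO BMDCs and mitochondrial messengers were not. Here a gene was called higher or lower at an adjusted p under 0.05 (edgeR's quasi-likelihood test, Benjamini-Hochberg adjustment over all genes tested). Without regard to the replicate number, none of the 12876 genes tested passed, so 0 members were called (0.0% of all genes), although 49 of 81 nuclear members were higher at an unadjusted p under 0.05, against 10.8% of all genes. DESeq2 on the same 6 libraries called 26 nuclear members higher (2.61% of the 18793 genes with any read). Shares given for DESeq2 below are likewise over all genes with any read, a wider base than the genes edgeR tested. Same-numbered libraries deviated together, most clearly those numbered 3, but the labels do not say what the number shares. When the number entered the fit as a block, 54 of 81 nuclear members were called higher and 0 lower. Of the 13 mitochondrial members, 5 were then called lower and 0 higher. Over all genes, 12.1% were called higher and 8.16% lower with the block. The median log2 fold change was 0.75 for nuclear members without and 0.75 with the block, -0.31 and -0.40 for mitochondrial members, and -0.05 for all genes without the block. Replicates 1 and 2 alone gave 48 nuclear members higher (7.91% of all genes) with a median of 0.84.

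Libraries of both genotypes did not overlap for 46 nuclear members with higher and 1 with lower levels in the knockout (11.7% and 13.1% of all genes), and they overlapped for all 13 mitochondrial members. TMM scaling factors were 1.21 to 1.26 in unstimulated CD18fl/fl and 0.940 to 1.07 in unstimulated CD18 CD11c cKO libraries. Under scaling to library size alone, the median of all genes moved to -0.44 and that of nuclear members to 0.37, which leaves a similar distance between them, and with the block 36 nuclear members were higher and 4 lower against 5.44% and 30.1% of all genes. Dendritic markers summed to 16300 to 25400 CPM in CD18fl/fl and 21500 to 37100 CPM in CD18 CD11c cKO libraries. Within that list, Cd86 was higher in the knockout, at 193, 155 and 208 against 501, 311 and 357 CPM. Cd74 was lower, at 5035, 5483 and 4627 against 3919, 3123 and 4446 CPM. The 9 macrophage markers summed to 1780 to 2210 and 1950 to 2320 CPM. Members of that list differed in direction as well. Adgre1 had 408, 491 and 434 against 234, 216 and 357 CPM, and C1qb 404, 364 and 396 against 616, 548 and 767 CPM. The 11 neutrophil markers summed to 11.5 to 1320 and 12.8 to 196 CPM, with 1 CD18fl/fl library at the top. The lists of mast cell and basophil markers (32.9 to 118 CPM over both genotypes), B cell markers (0.636 to 138), T and NK cell markers (2.26 to 27.0) and erythroid markers (0.666 to 15.0) lay below the dendritic and macrophage lists. In replicate 3 the mast cell and basophil sums (37.0 and 118 CPM) exceeded the neutrophil sums (11.5 and 12.8 CPM). The part of cell composition in the genotype differences was not tested, and in bulk RNA fewer cells of a type cannot be told apart from less RNA per cell.

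**Figure D1:**
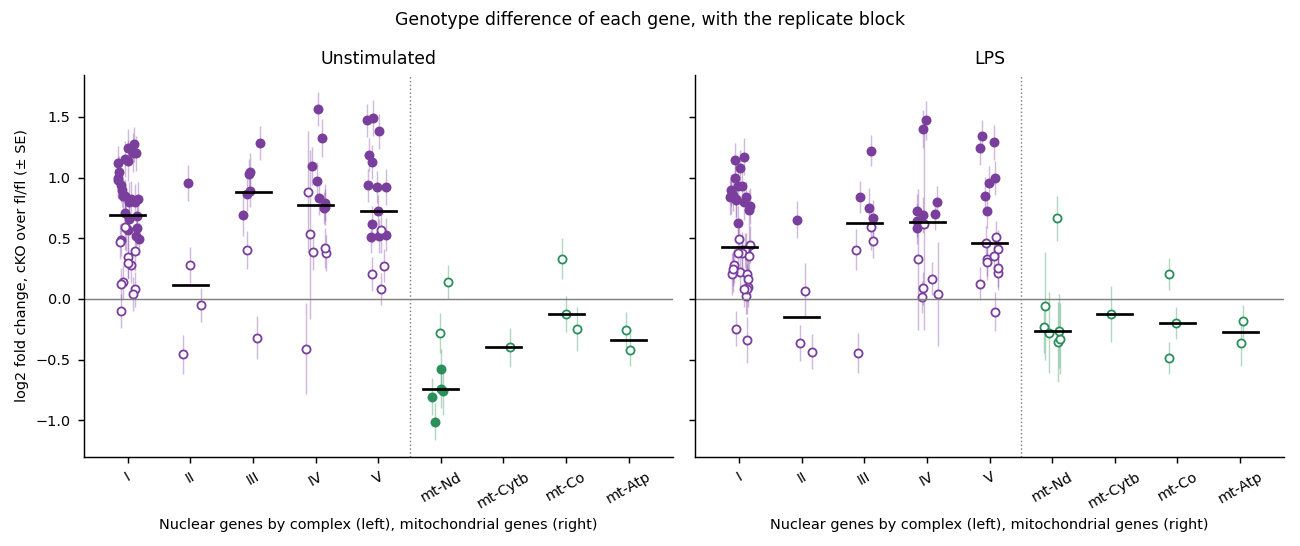
Log2 fold change (CD18 CD11c cKO over CD18fl/fl, ± SE) of each gene tested, from the edgeR fit with the replicate block, in unstimulated (left) and LPS-treated (right) BMDCs. Purple points are nuclear genes by complex and green points mitochondrial genes, filled where the adjusted p was under 0.05, and bars are medians. Nuclear genes of complexes I, III, IV and V lie mostly above 0, those of complex II spread around 0, and the mitochondrial genes lie mostly below 0.

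In complex I, 26 of 38 nuclear members were called higher in unstimulated knockout BMDCs with the block (median log2 fold change 0.69). Ndufb4 had 99.6, 79.9 and 85.7 CPM in CD18fl/fl and 205, 212 and 197 CPM in CD18 CD11c cKO libraries, a log2 fold change of 1.27 (SE 0.14, adjusted p = 0.0032 with the block and 0.086 without). Ndufb2 went from 26.6, 26.1 and 34.9 to 61.9, 70.6 and 66.1 CPM (log2 fold change 1.25, adjusted p = 0.0034 with the block). Every knockout library lay above every control library for both of these accessory subunits of the membrane arm. Ndufa7, the most abundant nuclear member of the complex per kilobase, had 126, 111 and 155 against 285, 275 and 270 CPM (1.16, adjusted p = 0.0037 with the block). The 7 nuclear core subunits, which bind NADH, the flavin and the iron-sulfur clusters or form the path to ubiquinone, had a median of 0.28 and a range of -0.10 to 0.68. Of these, Ndufs7, Ndufs8 and Ndufv2 were called higher. The 31 accessory subunits had a median of 0.82 and 23 of them were called higher. The core subunits were also longer, with a median exon length of 1794 against 898 bases. Ndufa4 is filed under complex I by its name but is known as a subunit of complex IV; it rose from 86.2, 69.3 and 72.1 to 166, 139 and 146 CPM (log2 fold change 1.05, adjusted p = 0.0037 with the block).

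Complex II, the succinate dehydrogenase that also acts in the citrate cycle, had 2 subunits above and 2 below 0 among its log2 fold changes (median 0.12). Sdhb (chr4:140688514-140706504, GRCm39, + strand), the iron-sulfur subunit, had 122, 111 and 125 CPM in unstimulated CD18fl/fl and 197, 248 and 227 CPM in CD18 CD11c cKO libraries, and was called higher with the block (log2 fold change 0.96, SE 0.15, adjusted p = 0.0066). Sdha (chr13:74470373-74498399, - strand), the flavin subunit that oxidizes succinate, had 86.8, 107 and 92.6 against 56.2, 65.1 and 81.2 CPM. It was the one nuclear member whose knockout libraries all lay below the controls, but its log2 fold change of -0.46 (SE 0.16) did not pass the threshold (adjusted p = 0.084 with the block, 0.049 by DESeq2 with the block). The membrane anchors showed smaller differences, Sdhc at 72.7, 77.6 and 94.2 against 77.3, 73.7 and 75.0 CPM (log2 fold change -0.05) and Sdhd at 177, 152 and 192 against 254, 177 and 182 CPM (log2 fold change 0.28), neither of them called.

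Complex III genes were called higher for 6 of 8 members (median 0.88). Uqcrh (chr4:115924162-115932268, GRCm39, - strand, exon length 547 bases) had 363, 297 and 189 CPM in unstimulated CD18fl/fl and 834, 796 and 393 CPM in CD18 CD11c cKO libraries. Replicate 3 was the lowest of each group, and the log2 fold change was 1.28 (SE 0.14, adjusted p = 0.0032 with the block and 0.18 without). Uqcrc1, a core protein of the complex, had the lowest value, with 63.8, 64.6 and 80.0 against 53.2, 37.0 and 76.3 CPM (log2 fold change -0.32, adjusted p = 0.23), whereas its partner Uqcrc2 rose by a log2 fold change of 1.03 (adjusted p = 0.0037 with the block). Uqcrfs1, the Rieske iron-sulfur protein, was at 0.40 and not called (adjusted p = 0.11).

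Complex IV and V contributed the largest differences. Cox7b (chrX:105059306-105066056, GRCm39, + strand, exon length 1001 bases), a small subunit of cytochrome c oxidase, had 132, 114 and 188 CPM in CD18fl/fl and 344, 322 and 586 CPM in CD18 CD11c cKO libraries, a log2 fold change of 1.56 (SE 0.14, adjusted p = 0.0030 with the block and 0.10 without). Cox5b followed with 209, 150 and 201 against 451, 456 and 427 CPM (log2 fold change 1.32, adjusted p = 0.0032 with the block). Groups did not overlap for either gene. In all, 8 of 14 nuclear complex IV members (median 0.78) and 13 of 17 complex V members (median 0.72) were called higher. Among ATP synthase genes, Atp5mpl had 105, 76.6 and 122 against 245, 237 and 333 CPM (log2 fold change 1.49), Atp5l (subunit g) 211, 192 and 192 against 537, 551 and 498 CPM (1.47) and Atp5md 138, 122 and 128 against 301, 333 and 337 CPM (1.38), each with an adjusted p of 0.0030 with the block. These 3 encode small subunits of the membrane part. Atp5e, the most abundant nuclear member of the complex per kilobase, had 260, 232 and 337 against 546, 545 and 722 CPM (1.19, adjusted p = 0.0032 with the block). The α and β subunits that form the catalytic head, Atp5a1 and Atp5b, were at 0.08 and 0.28 and were not called.

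Exon length moved with these differences. Exons of the 81 nuclear members tested added up to a median of 1046 bases a gene, those of mitochondrial members to 784 bases and those of all genes tested to 3391 bases. Across the 81 nuclear members, the log2 fold change in unstimulated BMDCs correlated with exon length at a Spearman rho of -0.39 (with the block), and across 12236 genes at -0.38. These are descriptions over genes measured in the same libraries, which are not independent replicates. The 39 nuclear members under 1000 bases had a median of 0.86 and 30 were called higher, and the 42 longer members had a median of 0.55 and 24 were called higher. All 521 genes under 1000 bases had a median of 0.71. When each library's dependence on exon length was removed by an offset and the block was kept, the median of the nuclear members was 0.18, 15 were called higher (8.21% of all genes) and Ndufs3 was called lower (log2 fold change -0.66, adjusted p = 0.029). The part of exon length in the genotype difference was not tested beyond this offset.

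Of the 15 members called higher under the length offset as well, 4 had exon lengths under 1000 bases and 11 were longer. Ndufb2 (log2 fold change 1.43), Atp5md (1.37), Cox7b (0.98), Ndufs4 (0.84), Uqcrc2 (0.81), Ndufb8 (0.74), Atp5g1 (0.73), Atp5mpl (0.72) and Cox5b (0.69) had the largest values, and Ndufb4, Ndufa11, Uqcrq, Ndufb1, Ndufv3 and Atp5l completed the 15. Exon length here is the sum over the exons of a gene, 4375 bases for Ndufb2, 2755 for Atp5md and 4912 for Atp5g1. The length of the messengers present was not measured. Whether the offset corrects genes whose messengers are shorter than this sum was not tested. Under the offset, the log2 fold change of the 81 nuclear members correlated with exon length at a Spearman rho of 0.31. For Uqcrh (0.41, adjusted p = 0.12) and Sdhb (0.44, adjusted p = 0.085) the call was lost. Mitochondrial members were lower throughout with the offset, and 11 of 13 were called lower (4.46% of all genes), from mt-Nd4l at -2.16 to mt-Nd1 at -0.89, the exceptions being mt-Co1 and mt-Co3. The offset was drawn from all genes, almost all of them nuclear. The calls for the mitochondrial genes thus changed in number with the length correction, whereas their position below the nuclear members did not.

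**Figure D2:**
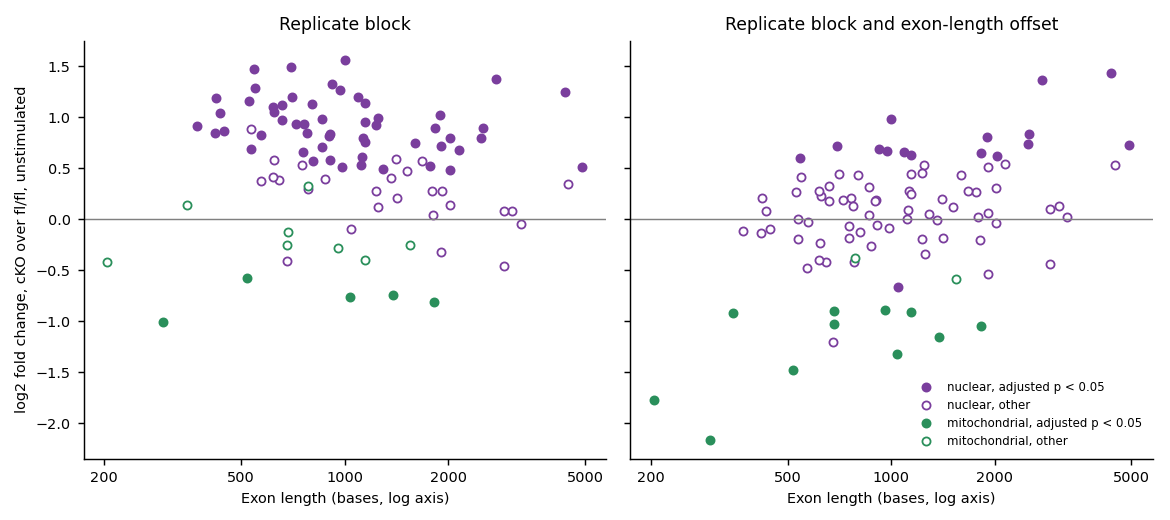
Log2 fold change (CD18 CD11c cKO over CD18fl/fl, unstimulated) against exon length in bases (log axis), from the edgeR fit with the replicate block (left) and with an additional offset for exon length (right). Each point is 1 gene, nuclear in purple and mitochondrial in green, filled where the adjusted p was under 0.05. On the right the nuclear genes centre near 0.18 and the mitochondrial genes lie below them, near -1.03.

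Mitochondrial messengers of complex I carried the lower levels in unstimulated CD18 CD11c cKO BMDCs. With the block, mt-Nd4l, mt-Nd5, mt-Nd2, mt-Nd4 and mt-Nd6 were called lower, 5 of the 7 mt-Nd genes, and 0 of the other 6 mitochondrial members. For mt-Nd4l, the levels were 38.9, 77.4 and 69.6 CPM in CD18fl/fl and 20.8, 40.3 and 27.2 CPM in CD18 CD11c cKO libraries (log2 fold change -1.01, SE 0.15, adjusted p = 0.0058 with the block and 0.23 without). For mt-Nd5 they were 301, 651 and 412 against 199, 374 and 181 CPM (-0.81, adjusted p = 0.012 with the block), and for mt-Nd2 196, 425 and 553 against 155, 263 and 209 CPM (-0.76, adjusted p = 0.035). Each of these genes was lower in the knockout library of every same-numbered pair, yet the groups overlapped because replicates differed as much. With replicates 1 and 2 alone, 0 mitochondrial members were called, and with DESeq2 and the block 6 were lower (6.69% of all genes). The messengers of complex IV and V were not called: mt-Co3 had 4499, 5715 and 2194 against 6372, 7099 and 2204 CPM (log2 fold change 0.33), mt-Co1 4919, 7373 and 5261 against 4418, 6993 and 3286 CPM (-0.25), and mt-Atp6 2025, 3457 and 942 against 1839, 2713 and 696 CPM (-0.25).

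The balance of mitochondrial to nuclear messengers was lower in every knockout library than in its control of the same number. The log2 ratio of summed mitochondrial to summed nuclear member levels was 0.57, 1.35 and 0.18 in unstimulated CD18fl/fl and -0.13, 0.43 and -0.93 in CD18 CD11c cKO libraries, a difference of -0.91 between group means with pairs at -0.70, -0.92 and -1.11. After LPS the ratio was -0.13, 0.07 and 0.78 in CD18fl/fl and -0.97, -0.66 and -0.39 in CD18 CD11c cKO libraries, a difference of -0.92 with pairs at -0.85, -0.73 and -1.17. Unstimulated groups overlapped and LPS-treated groups did not. Summed nuclear levels of the genotypes did not overlap, at 10514 ± 1169 CPM in unstimulated CD18fl/fl against 17398 ± 451 CPM in CD18 CD11c cKO unstimulated BMDCs (mean ± SD, n = 3). Summed mitochondrial levels overlapped, at 17533 ± 5513 and 16070 ± 6820 CPM.

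**Figure D3:**
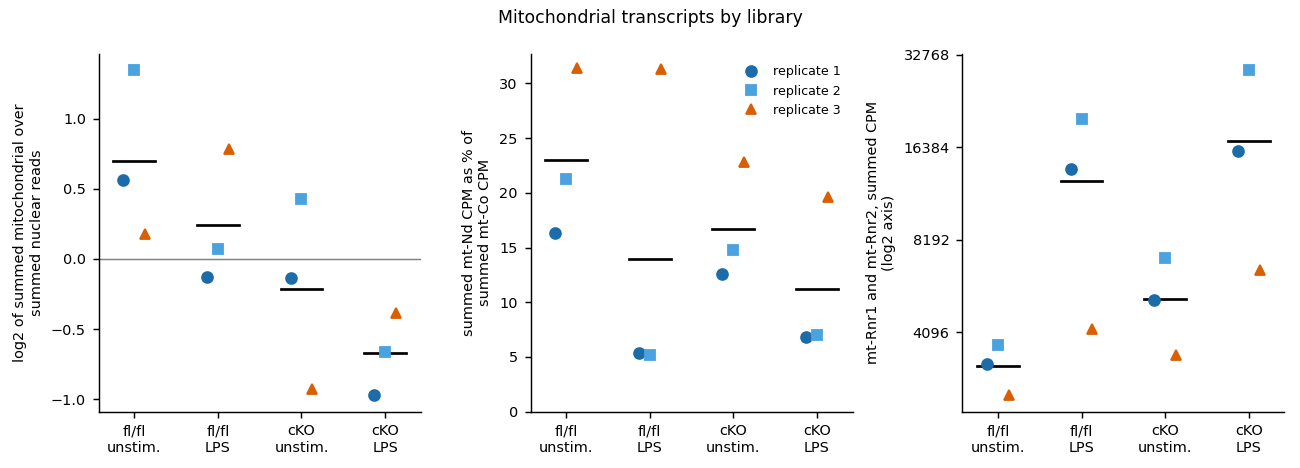
Mitochondrial transcripts in each of the 12 libraries, with bars at the group means. The panels give the log2 ratio of summed mitochondrial to nuclear member levels (left), the summed mt-Nd level as a percentage of the summed mt-Co level (middle) and the summed CPM of the ribosomal RNAs mt-Rnr1 and mt-Rnr2 (right, log2 axis). Knockout libraries have the lower ratio within each number, and replicate 3 keeps a high mt-Nd share after LPS.

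The same comparison after LPS addressed whether the genotypes also differed once activated. Again 0 of 12441 genes passed the threshold without the block, 33 nuclear members were higher at an unadjusted p under 0.05 (6.19% of all genes), and DESeq2 called 8 higher (0.740% of all genes). With the block, 37 of 81 nuclear members were called higher and 0 lower (6.98% and 3.16% of all genes), and 0 of 13 mitochondrial members were called. Without CD18 CD11c cKO replicate 1 or 2 no member was called with the block, and without CD18fl/fl replicate 1 or 2 there were 11 and 15. Of the 37, 36 were also called higher in unstimulated BMDCs, that is 97.3% of the 37 and 66.7% of the 54, where the shares over all genes were 88.7% and 49.6%. Replicates 1 and 2 alone gave 17 nuclear members higher (3.24% of all genes). Groups did not overlap for 44 nuclear members that were higher (9.51% of all genes) and 2 that were lower (8.09%), Sdhc and Uqcrc1. The 9 macrophage markers summed to 1480 to 1970 CPM in LPS-treated CD18fl/fl and 1150 to 1260 CPM in CD18 CD11c cKO libraries, and their part in these differences was not tested.

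By complex, 17 of 38 nuclear members of complex I, 1 of 4 of complex II, 4 of 8 of complex III, 8 of 14 of complex IV and 7 of 17 of complex V were called higher after LPS with the block. Cox5b had 224, 203 and 180 CPM in CD18fl/fl and 544, 737 and 460 CPM in CD18 CD11c cKO libraries (log2 fold change 1.47, SE 0.16, adjusted p = 0.0064 with the block and 0.29 without). Cox7b was at 184, 215 and 190 against 432, 529 and 637 CPM (1.40) and Atp5l at 294, 366 and 210 against 752, 868 and 592 CPM (1.34), with the same adjusted p. The knockout libraries of these 3 genes all lay above the controls. Sdhb was called higher at 188, 234 and 91.3 against 253, 395 and 165 CPM (log2 fold change 0.65, adjusted p = 0.038), and the lowest values were -0.45 for Uqcrc1, -0.44 for Sdha and -0.37 for Sdhc, none of them called. None of the 7 core subunits of complex I was called (median 0.17), against 17 of 31 accessory subunits (median 0.73). With the length offset and the block, 11 nuclear members were called higher and 2 lower, Cox6a1 and Ndufs3 (5.39% and 2.01% of all genes), and mt-Atp8, mt-Co2, mt-Atp6 and mt-Co1 were called lower.

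Mitochondrial messengers of complexes I and III differed between the genotypes in opposite directions by replicate after LPS. For the 7 mt-Nd genes, the median log2 ratio of CD18 CD11c cKO over CD18fl/fl was 0.41 and 0.22 in replicates 1 and 2 (7 of 7 higher in each) and -1.28 in replicate 3 (6 of 7 lower). The ratio of mt-Cytb was 0.13, 0.39 and -0.81. Medians of the 3 mt-Co genes were -0.15, -0.008 and -0.36 and those of both mt-Atp genes -0.015, -0.14 and -0.59, below 0 in every pair. Of the mitochondrial members, mt-Nd3 was the one called (higher) in replicates 1 and 2 alone. The levels of mt-Nd3 were 52.5, 49.6 and 268 CPM in CD18fl/fl and 97.8, 97.4 and 309 CPM in CD18 CD11c cKO libraries.

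The response to LPS was the second question. No member passed the threshold without the block in either genotype, where 2.06% of 12744 genes were higher and 1.83% lower in CD18fl/fl BMDCs, and 2.23% and 1.76% of 12687 genes in CD18 CD11c cKO BMDCs. In CD18fl/fl BMDCs, 7 nuclear members were higher and 2 lower at an unadjusted p under 0.05 (12.4% and 11.4% of all genes), and DESeq2 called 0 members (9.48% of all genes). In CD18 CD11c cKO BMDCs, 5 were higher and 5 lower at an unadjusted p under 0.05 (10.7% and 10.5% of all genes), and DESeq2 again called 0 (7.98% of all genes). With the block, 0 members were called in CD18fl/fl (6.33% and 6.43% of all genes) and 3 members rose and 5 fell in knockout BMDCs (10.2% and 9.93% of all genes). DESeq2 with the block called 4 nuclear members higher and 6 mitochondrial members lower in CD18fl/fl BMDCs (8.44% and 8.10% of all genes). The response was present in these cells, since Acod1 went from 2.47, 2.08 and 25.2 to 544, 359 and 696 CPM in CD18fl/fl BMDCs (log2 fold change 5.76, adjusted p = 0.044 without the block). In CD18 CD11c cKO BMDCs, Acod1 went from 4.31, 2.27 and 59.5 to 479, 436 and 560 CPM. There it was called with the block (log2 fold change 5.89, adjusted p = 0.0069) and not without it. In replicate 3, Acod1 started higher in both genotypes, at 25.2 and 59.5 CPM against 2.08 to 4.31 CPM in the other unstimulated libraries. After LPS, dendritic markers summed to 16600 to 46400 CPM in CD18fl/fl and 23200 to 29500 CPM in CD18 CD11c cKO libraries. In that list Cd86 had 738, 689 and 592 against 2014, 1616 and 1537 CPM. Cd74 went the other way, at 3789, 4465 and 4163 against 1931, 1956 and 3620 CPM. Neutrophil markers summed to 18.9 to 44.5 and 16.6 to 69.7 CPM. The part of these markers in the responses was not tested.

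Mitochondrial messengers gave the widest spread, because the replicates went in opposite directions. In replicates 1 and 2 of both genotypes, 13 of 13 mitochondrial members were lower after LPS than in the same-numbered unstimulated library, with medians of -1.53 and -2.20 on the log2 scale in CD18fl/fl and -0.98 and -1.41 in CD18 CD11c cKO BMDCs. In replicate 3, 12 of 13 were higher in CD18fl/fl (median 0.43) and 13 of 13 in CD18 CD11c cKO BMDCs (median 0.42). Replicate 3 was set apart here with earlier results of these data known. With replicates 1 and 2 alone, 11 mitochondrial members fell in CD18fl/fl BMDCs (24.3% of all genes were lower) and 10 in CD18 CD11c cKO BMDCs (7.99% of all genes). The exceptions were mt-Co1 and mt-Co3 in the former and mt-Co1, mt-Co2 and mt-Nd4l in the latter.

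**Figure D4:**
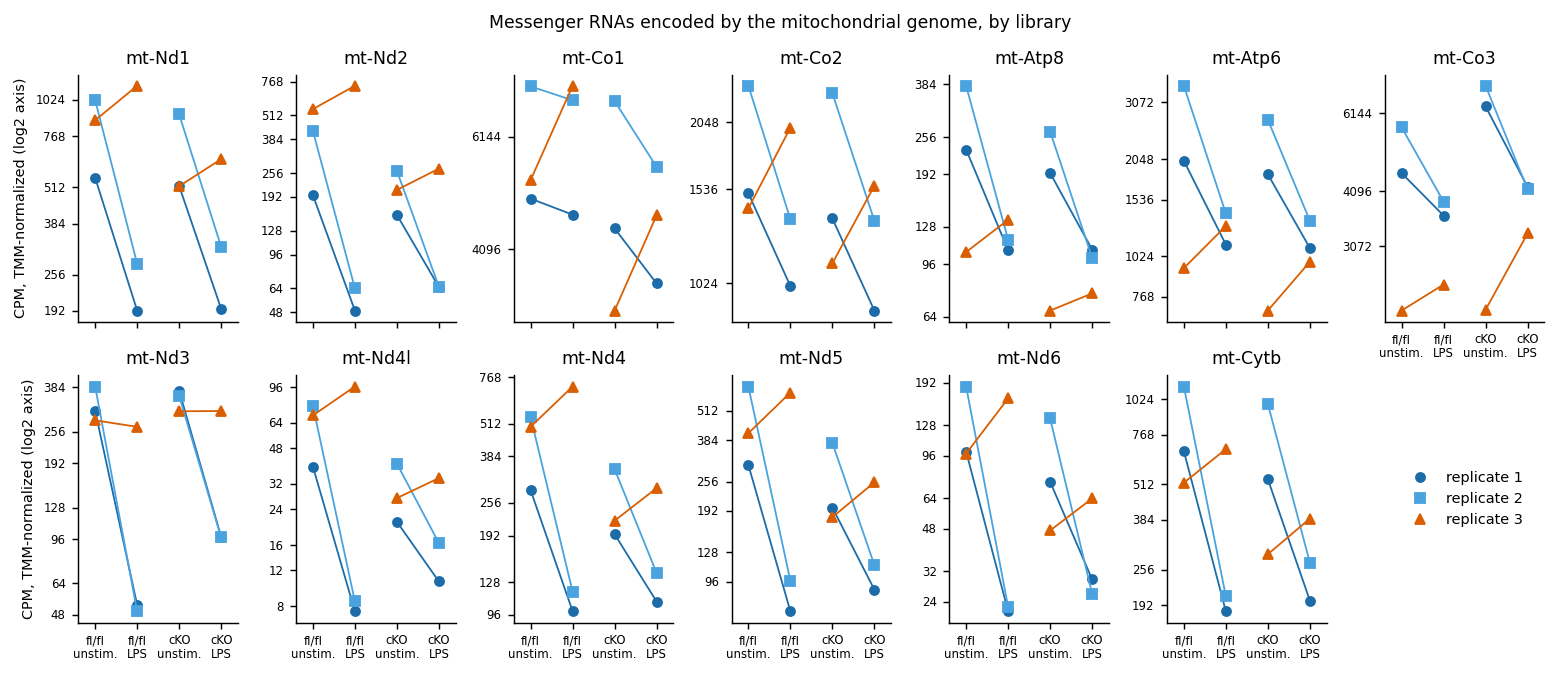
CPM (TMM-normalized, log2 axis) of the 13 mitochondrial messengers in each of the 12 libraries. Lines join the unstimulated and the LPS-treated library of the same genotype and replicate number. Lines of replicates 1 and 2 fall in every panel, steeply for the mt-Nd genes and mt-Cytb and slightly for mt-Co1, while those of replicate 3 rise except for mt-Nd3 in CD18fl/fl.

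Messengers of complex I and III fell the furthest in replicates 1 and 2. The levels of mt-Nd2 were 196, 425 and 553 CPM in unstimulated and 48.9, 63.9 and 732 CPM in LPS-treated CD18fl/fl BMDCs, and 155, 263 and 209 against 65.0, 65.1 and 270 CPM in CD18 CD11c cKO BMDCs. For mt-Nd4l they were 38.9, 77.4 and 69.6 against 7.55, 8.44 and 96.6 CPM, and 20.8, 40.3 and 27.2 against 10.6, 16.4 and 34.2 CPM. From replicates 1 and 2 alone, the log2 fold change of mt-Nd4l in CD18fl/fl BMDCs was -2.87 (adjusted p = 1.23e-05), that of mt-Nd3 -2.77 and that of mt-Nd6 -2.67. The remaining mt-Nd genes gave 552, 1021 and 871 against 193, 279 and 1144 CPM for mt-Nd1 in CD18fl/fl BMDCs, and 286, 542 and 498 against 99.1, 118 and 709 CPM for mt-Nd4. For mt-Nd5, the levels were 301, 651 and 412 against 71.8, 96.8 and 613 CPM, and for mt-Nd6 99.8, 185 and 97.9 against 21.9, 22.8 and 165 CPM. The same order of replicates held in CD18 CD11c cKO BMDCs, with mt-Nd1 at 517, 912 and 516 against 195, 319 and 639 CPM, mt-Nd4 at 194, 344 and 219 against 108, 138 and 291 CPM, mt-Nd5 at 199, 374 and 181 against 88.8, 113 and 254 CPM, and mt-Nd6 at 74.9, 137 and 47.1 against 29.6, 25.9 and 63.9 CPM. Of all mitochondrial members, mt-Nd3 alone had CD18fl/fl groups that did not overlap, at 310, 387 and 284 against 52.5, 49.6 and 268 CPM, with 371, 355 and 308 against 97.8, 97.4 and 309 CPM in the knockout. The level of mt-Cytb, the mitochondrial subunit of complex III, was 671, 1134 and 519 against 183, 207 and 682 CPM in CD18fl/fl and 534, 985 and 291 against 200, 271 and 388 CPM in CD18 CD11c cKO BMDCs.

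Messengers of complex IV moved least. The levels of mt-Co1 were 4919, 7373 and 5261 CPM in unstimulated and 4643, 7014 and 7390 CPM in LPS-treated CD18fl/fl BMDCs, and 4418, 6993 and 3286 against 3623, 5515 and 4635 CPM in CD18 CD11c cKO BMDCs. From replicates 1 and 2 alone its log2 fold change in CD18fl/fl BMDCs was -0.08 (SE 0.27, adjusted p = 0.83). The levels of mt-Co2 were 1508, 2398 and 1413 against 1011, 1348 and 2002 CPM in CD18fl/fl and 1353, 2322 and 1115 against 910, 1340 and 1558 CPM in knockout BMDCs. Those of mt-Co3 were 4499, 5715 and 2194 against 3603, 3876 and 2514 CPM and 6372, 7099 and 2204 against 4183, 4131 and 3283 CPM. The ATP synthase messengers lay between, mt-Atp6 at 2025, 3457 and 942 against 1114, 1391 and 1272 CPM and mt-Atp8 at 233, 380 and 105 against 107, 116 and 135 CPM in CD18fl/fl BMDCs, with log2 fold changes of -1.13 and -1.46 from replicates 1 and 2 alone. In the knockout, mt-Atp6 had 1839, 2713 and 696 against 1087, 1321 and 986 CPM and mt-Atp8 194, 267 and 67.1 against 108, 101 and 76.6 CPM. Accordingly, summed mt-Nd levels went from 16.3%, 21.2% and 31.4% to 5.34%, 5.21% and 31.3% of the summed mt-Co levels in CD18fl/fl BMDCs, and from 12.6%, 14.8% and 22.8% to 6.83%, 7.05% and 19.7% in CD18 CD11c cKO BMDCs.

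The ribosomal RNAs of the same chromosome rose with LPS. This was opposite to the messengers in replicates 1 and 2, but not in replicate 3. Levels of mt-Rnr1 were 875, 789 and 915 CPM in unstimulated and 5239, 6852 and 1560 CPM in LPS-treated CD18fl/fl BMDCs, and 1289, 1666 and 1166 against 5014, 7924 and 2244 CPM in CD18 CD11c cKO BMDCs. With the block, mt-Rnr1 rose in both genotypes (log2 fold change 2.18, adjusted p = 0.037, and 1.67, adjusted p = 0.0072), as did mt-Rnr2 (1.59, adjusted p = 0.030, and 1.39, adjusted p = 0.0075). The rise was present in all 3 pairs and smallest in replicate 3. These RNAs were measured in poly(A)-selected libraries. The share of reads in introns was 1.91% to 2.30% in unstimulated and 2.39% to 4.54% in LPS-treated libraries, and its part in the mitochondrial levels was not tested.

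Nuclear members showed small and mixed changes with LPS. Their median log2 fold change was 0.17 in CD18fl/fl and 0.07 in CD18 CD11c cKO BMDCs without the block, both of which turned to -0.14 and -0.15 under library size scaling, where the medians of all genes were -0.32 and -0.23. Within the pairs, on TMM-scaled CPM, the nuclear median was 0.20, 0.56 and -0.20 in CD18fl/fl and 0.18, 0.27 and -0.11 in CD18 CD11c cKO BMDCs. On this scale, nuclear and mitochondrial medians had opposite signs in all 6 pairs. TMM factors were lower in the LPS-treated library of each pair, such as 0.791 against 0.940 in replicate 1 of the knockout. The signs of these small nuclear medians can thus change with the scaling, and the pairs were not computed under library size scaling. Groups did not overlap for 13 higher and 8 lower nuclear members in CD18fl/fl (13.6% and 15.9% of all genes), and for 14 higher and 10 lower ones in the knockout (14.8% and 13.4%).

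**Figure D5:**
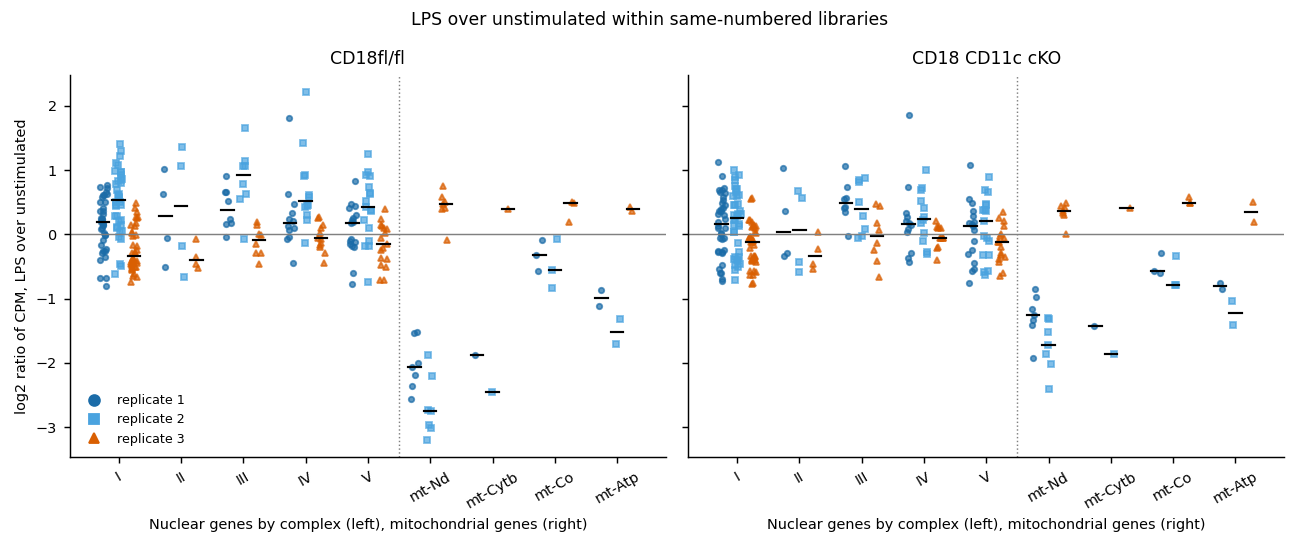
Log2 ratio of CPM, LPS-treated over unstimulated, within libraries of the same genotype and replicate number, for CD18fl/fl (left) and CD18 CD11c cKO (right) BMDCs. Each point is 1 gene, grouped by complex for nuclear and by gene family for mitochondrial members, and bars are medians. Mitochondrial members of replicates 1 and 2 lie below 0 and those of replicate 3 almost all above it, in both genotypes.

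The nuclear members called with the block in CD18 CD11c cKO BMDCs were spread over complexes I, III and V. Atp5md rose from 301, 333 and 337 to 639, 618 and 427 CPM (log2 fold change 0.72, SE 0.20, adjusted p = 0.044), Ndufs4, an accessory subunit of complex I, rose from 66.6, 62.1 and 98.9 to 107, 124 and 147 CPM (0.70, adjusted p = 0.032), and Uqcrh rose from 834, 796 and 393 to 1397, 1457 and 532 CPM (0.64, adjusted p = 0.043). Ndufb5 fell from 73.2, 74.5 and 114 to 45.1, 45.4 and 67.6 CPM (-0.77, adjusted p = 0.020) and Atp5g1 fell from 67.9, 69.3 and 105 to 40.2, 44.6 and 66.9 CPM (-0.73, adjusted p = 0.026). Atp5pb, Ndufa10 and Ndufa12 fell as well (-0.63, -0.60 and -0.60). The same genes had log2 fold changes of 0.84 (Atp5md), 0.75 (Ndufs4), 0.67 (Uqcrh), -0.59 (Ndufb5) and -0.66 (Atp5g1) in CD18fl/fl BMDCs, where none passed the threshold.

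Leaving out replicate 3 changed the counts in CD18fl/fl BMDCs most. There, replicates 1 and 2 alone gave 35 nuclear members higher and 5 lower, against 23.2% and 24.3% of all genes. The nuclear members that rose the most were Cox7a1 (log2 fold change 2.00), Uqcr10 (log2 fold change 1.28, adjusted p = 0.00022), Sdhd (1.18), Atp5md (1.05), Ndufb9 (1.02) and Cox7a2 (1.02), and Atp5g1, Ndufb5, Ndufs1, Sdha and Ndufa10 fell, by 0.76, 0.65, 0.64, 0.59 and 0.58. Uqcr10, a small subunit of complex III, had 80.8, 63.1 and 117 CPM in unstimulated and 152, 200 and 129 CPM in LPS-treated CD18fl/fl BMDCs, and Ndufs1 37.5, 37.7 and 54.7 against 23.5, 24.7 and 34.6 CPM. The subunits of complex II again went apart, with Sdhb at 122, 111 and 125 against 188, 234 and 91.3 CPM and Sdhd at 177, 152 and 192 against 358, 391 and 151 CPM, while Sdha went from 86.8, 107 and 92.6 to 61.3, 67.5 and 87.7 CPM and Sdhc from 72.7, 77.6 and 94.2 to 70.3, 68.7 and 65.7 CPM. In CD18 CD11c cKO BMDCs, Sdhd had 254, 177 and 182 against 522, 263 and 187 CPM and Sdha 56.2, 65.1 and 81.2 against 45.9, 48.6 and 69.6 CPM. From replicates 1 and 2 of CD18 CD11c cKO BMDCs, 3 nuclear members rose and 2 fell (7.93% and 7.99% of all genes).

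Whether the response to LPS differed between the genotypes was tested by the interaction over all 12 libraries. No member and none of the 13752 genes passed the threshold, without or with the block, and 0 members were below an unadjusted p of 0.05 (48 genes higher and 49 lower over all genes, or 0.349% and 0.356%). DESeq2 called 1 gene (0.00485%) and, with the block, 130 genes (0.630% of all genes), 0 of them members. The median was -0.10 for nuclear and 0.03 for mitochondrial members. From replicates 1 and 2 alone it was -0.22 and 0.47, and again no gene passed, while mt-Nd3 (0.82), mt-Nd4l (1.63) and the low-count first entry for Atp5o were higher at an unadjusted p under 0.05. Leaving out 1 library moved the mitochondrial median from -0.42 to 0.94. The largest nuclear values were 0.52 for Ndufab1 (SE 0.46), the acyl carrier protein, and -0.82 for Cox7a1 (SE 0.77). Ndufab1 had 28.6, 26.2 and 58.8 against 47.4, 35.6 and 44.2 CPM in CD18fl/fl and 32.1, 43.1 and 57.8 against 70.3, 77.2 and 66.4 CPM in CD18 CD11c cKO BMDCs. Cox7a1 had 1.08, 0.903 and 1.66 against 3.79, 4.202 and 1.98 CPM, and 1.53, 1.57 and 3.73 against 5.55, 2.25 and 2.82 CPM.

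Most subunits with several isoforms were represented by 1 main gene, subunit c of ATP synthase by 3. Cox4i1 had 619 to 760 CPM in unstimulated CD18fl/fl and 958 to 1384 CPM in CD18 CD11c cKO BMDCs (log2 fold change 0.83, adjusted p = 0.0090 with the block), while Cox4i2 was at most 0.381 CPM. Likewise, Cox8a had 223 to 377 CPM in unstimulated libraries and Cox8b and Cox8c at most 0.134 CPM. Cox6a1 ranged from 163 to 251 CPM over all libraries, whereas the muscle isoform Cox6a2 had 32.8, 13.9, 15.9 and 8.71 CPM in the 4 libraries of replicate 3 and at most 0.567 CPM in the other 8. Cox6b1 had 210 to 653 CPM. Cox6b2, with the lowest log2 fold change of the knockout LPS response (-1.49, adjusted p = 0.36), had 0.666, 1.63 and 1.52 against 0.257, 0.298 and 1.09 CPM in CD18fl/fl and 1.495, 0.667 and 3.96 against 0.770, 0.449 and 1.00 CPM in CD18 CD11c cKO BMDCs, and Cox7a2 had 65.2 to 313 CPM against at most 5.55 CPM for Cox7a1. Cox7a2l, a related protein known from the assembly of supercomplexes, had 459 to 549 CPM in unstimulated CD18fl/fl and 692 to 997 CPM in CD18 CD11c cKO BMDCs and was called higher with the block (log2 fold change 0.76, adjusted p = 0.013). Of the 3 genes that encode the identical mature subunit c of ATP synthase, Atp5g3 (156 to 196 against 310 to 325 CPM, log2 fold change 0.93) and Atp5g1 (47.5 to 80.5 against 67.9 to 105 CPM, 0.51) were called higher in unstimulated CD18 CD11c cKO BMDCs, whereas Atp5g2 (176 to 244 against 168 to 436 CPM, 0.57, adjusted p = 0.070) was not.

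The promoters of the nuclear members were searched for 4 motifs of factors known to act on respiratory genes. RefSeq promoters (GRCm38.p6, 250 bases before to 50 after each start) were matched by symbol for 69 of 89 nuclear members, giving 74 windows. On either strand, the NRF1 core GCGCATGC occurred in 13.5% of member windows and 2.71% of all 32851 promoters, the YY1 motif AAGATGGCG in 9.46% and 1.40%, the GABP motif CCGGAAGT in 6.76% and 3.89%, and the ERR motif TCAAGGTCA in 2.70% and 0.420%. Matches can share bases: NRF1 matches on both strands can lie on top of each other, and the YY1 motif ends in GCG, with which the NRF1 core begins. A match describes these letters only. The 150 bases before the start are shown for the member with the largest genotype difference, which holds none of the 4, and for 1 higher member with each of 3 motifs, with the match in capitals.
Cox7b (chrX:106015550-106015699, + strand, no motif): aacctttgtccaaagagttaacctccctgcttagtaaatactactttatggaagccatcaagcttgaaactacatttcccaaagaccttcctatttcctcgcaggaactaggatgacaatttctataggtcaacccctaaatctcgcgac
Ndufa11 (chr17:56717612-56717761, + strand, NRF1 on both strands): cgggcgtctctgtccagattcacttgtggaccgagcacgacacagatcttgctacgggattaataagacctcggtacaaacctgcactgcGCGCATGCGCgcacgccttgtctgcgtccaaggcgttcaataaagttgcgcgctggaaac
Uqcrh (chr4:116075071-116075220, - strand, GABP): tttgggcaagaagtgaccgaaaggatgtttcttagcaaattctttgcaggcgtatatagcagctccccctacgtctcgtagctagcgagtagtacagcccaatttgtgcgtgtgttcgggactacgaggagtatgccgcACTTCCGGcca
Atp5g3 (chr2:73911327-73911476, - strand, ERR): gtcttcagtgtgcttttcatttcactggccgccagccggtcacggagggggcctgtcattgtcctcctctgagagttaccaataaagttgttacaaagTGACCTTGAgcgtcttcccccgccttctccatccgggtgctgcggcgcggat

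Genes of the wider pathway, from lists made with earlier results of these data known, included further genes that differed between the genotypes. Without the block, 0 of them were called in either genotype comparison. With the block, called higher in unstimulated CD18 CD11c cKO BMDCs were 7 of 17 assembly factors of complex I, 4 of 4 of complex II, 2 of 6 of complex III, 9 of 21 of complex IV and 1 of 3 of complex V, with 0 lower, where 12.1% of all genes were higher and 8.16% lower. With the length offset added these counts were 2, 3, 0, 8 and 2 (8.21% of all genes). The largest were Pet100 (log2 fold change 1.36), Lyrm2 (1.28) and Uqcc2 (1.21), and Tmem70, needed for assembly of ATP synthase, was at 0.94. Of 16 electron carriers and further subunits that the naming rule leaves out, 5 were higher, with Cycs, which encodes cytochrome c, at 0.96 (adjusted p = 0.0079). Among 27 genes for mitochondrial transcription and transcript handling 7 were higher, with Mterf1a at 1.39, and among 19 genes of the citrate cycle and pyruvate dehydrogenase 3, with Idh3a at 1.05. Of 20 glycolysis genes, 1 was higher (Eno3, 1.19) and 4 were lower (Pfkfb3 the lowest, -0.73), and of 14 nuclear regulators 0 were higher and 2 lower, Gabpa (-0.60, adjusted p = 0.0495) and Arnt (-0.55, adjusted p = 0.044). With the length offset, 1 glycolysis gene was lower and 0 regulators were (4.46% of all genes), so that the calls of Gabpa and Arnt were lost. After LPS, Slc2a1 (-0.88) and Gpi1 (-0.59) of the glycolysis list and Hif1a (-0.67, adjusted p = 0.040) of the regulators were lower in CD18 CD11c cKO BMDCs (3.16% of all genes), and with the length offset 0 of either list were.

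With LPS, these lists changed in the same direction in both genotypes for several genes, the controls of the 2 comparisons being separate libraries. Without the block, only Acod1 was called in CD18fl/fl (higher, 2.06% of all genes). In CD18 CD11c cKO BMDCs only Ldhb was (log2 fold change -2.39, adjusted p = 0.041, lower, 1.76% of all genes). The other genes named here were called with the block only. With the block, Lrpprc, whose product stabilizes mitochondrial messengers together with that of Slirp, fell in CD18fl/fl (log2 fold change -1.83, adjusted p = 0.019) and in CD18 CD11c cKO BMDCs (-1.41, adjusted p = 0.0088), whereas Slirp rose (0.98, adjusted p = 0.037, and 0.89, adjusted p = 0.015). Suclg2 of the citrate cycle fell (-1.97 and -1.78), as did Ldhb (-2.43 and -2.26) and Pparg (-3.03 and -5.48). Tmem70 rose in both genotypes (0.94 and 1.05), Pet100 rose in CD18fl/fl (1.44) and Cox17, a copper chaperone of complex IV, in CD18 CD11c cKO BMDCs (1.30, SE 0.17). In all, 1 of 19 genes of the citrate cycle list rose (Acod1) and 3 fell in CD18fl/fl, against 1 and 7 in CD18 CD11c cKO BMDCs, and of 20 glycolysis genes 0 rose and 2 fell against 5 and 2. Of all genes, 6.33% rose and 6.43% fell in CD18fl/fl and 10.2% and 9.93% in CD18 CD11c cKO BMDCs, so that a count of 2 of 20 lies near this share.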

How the data were processed

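RNA-seq of MHCII+ BMDCs, 3 libraries in each of 4 groups, was used. Per the methods and labels, RNA was poly(A)-selected, libraries were made without strand marking or molecular identifiers and sequenced as single reads, and the authors used CLC Genomics Workbench at its default settings to map reads and count them. The deposited values are raw counts per gene (total gene reads, which include reads placed at several sites). The gene coordinates in the deposited files are those of GRCm39, while the submitters' processing notes name GRCm38. Promoter and motif coordinates are of GRCm38.p6 and were not mixed with the former.

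Genes with at least 10 counts in enough libraries (filterByExpr) were tested in R 4.3.3 with edgeR 4.0.16 (TMM scaling, quasi-likelihood test) separately for each comparison of 3 against 3 libraries and, for the interaction, over all 12. Benjamini-Hochberg adjustment ran over all genes tested, with a threshold of 0.05. The fit without the replicate number was the planned one. The numbers in the titles were then checked. Deviations of same-numbered libraries from their group means correlated at 0.265 to 0.716 across genes in every pair. Replicates 1 and 2 also correlated with each other, at 0.154 to 0.334. In CD18fl/fl BMDCs, unstimulated replicate 1 correlated with LPS-treated replicate 2 at 0.278, against 0.265 for replicate 2 with itself. The check therefore cannot decide whether 1 pairs with 1 and 2 with 2. The fit with the replicate number as a block is printed beside each result whose call it changes.

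Alternatives were DESeq2 1.42.0, other scalings, other count filters, unique gene reads, leaving out each library, and an offset for exon length (lowess of log counts, span 0.3). Added after seeing the data were, each with the block, other scalings, unique gene reads, all 12 libraries and leaving out each library. Member genes, pathway lists and marker lists were chosen with earlier results of these data known. The rule for members with values by library took all mitochondrial members, the Sdh genes, the most abundant nuclear member of each complex and isoforms of a subunit. It also took the 3 highest and 3 lowest log2 fold changes of nuclear members in each comparison. Some of these are given as ranges or for 1 comparison only. Further members given by library, such as Ndufb2, Ndufb4 and Uqcrc1, were picked with values in view. The fits were run before use on simulated data with known fold changes, larger than most reported here, and with an effect shared by replicate number. That run does not show how the fits behave for smaller changes or for libraries that are not paired. Count intervals and limits cover counting error only. No 2 libraries were alike within sampling noise. Not every member is reported here by name.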

Additional observations from a re-analysis of the deposited data

How the results depend on the processing

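Members called in unstimulated BMDCs between genotypes numbered 0 without and 59 with the replicate block, 26 with DESeq2, 65 with DESeq2 and the replicate block, 27 with the replicate block plus the length offset, 34 with all 12 libraries and the replicate block and 48 from replicates 1 and 2 alone. All 26 calls of DESeq2, 59 of the 65, 20 of the 27, 34 of the 34 and 45 of the 48 were also called with the replicate block in the 6 libraries. After LPS the numbers were 0 without and 37 with the replicate block, 8 with DESeq2, 44 with DESeq2 and the replicate block, 17 with the replicate block plus the length offset, 18 from replicates 1 and 2 and 2 with all 12 libraries. For the response to LPS in CD18fl/fl BMDCs they were 0 without the block, 10 with DESeq2 and the replicate block, 51 from replicates 1 and 2, 4 with library size scaling and the replicate block and 12 with all 12 libraries and the replicate block. In CD18 CD11c cKO BMDCs they were 0 without and 8 with the replicate block, 15 with DESeq2 and the replicate block, 7 with the replicate block plus the length offset, 15 from replicates 1 and 2 and 13 with library size scaling and the replicate block. The cause of these shifts was not tested, except that fewer libraries entered some fits. The nuclear median between genotypes moved from 0.75 to 0.37 with library size scaling, 0.16 with the length offset and 0.18 with the replicate block plus the length offset in unstimulated BMDCs, and from 0.48 to 0.22, 0.13 and 0.13 after LPS. The nuclear median of the LPS response turned to -0.14 (CD18fl/fl) and -0.15 (CD18 CD11c cKO) with library size scaling, and replicates 1 and 2 gave 0.37 for nuclear and -1.94 for mitochondrial members in CD18fl/fl BMDCs.

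With the replicate block plus the length offset, the log2 fold change changed sign in unstimulated BMDCs for mt-Nd3 (-0.92), Atp5k (-0.11), Ndufa3 (-0.13), Ndufc2 (-0.068), Ndufs7 (-0.080), Uqcr11 (-0.095), Uqcrb (-0.19), Ndufa2 (-0.027), Ndufb11 (-0.052) and Ndufa1 (-0.14), and after LPS for Cox6a1 (-0.68), Atp5k (-0.021), Uqcr10 (-0.058), Ndufa2 (-0.070) and Ndufa1 (-0.024).

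Leaving out 1 library at a time gave 0 to 0 calls between genotypes in both conditions without the block. With the replicate block it gave 18 to 66 in unstimulated BMDCs (18 without CD18fl/fl replicate 2 or CD18 CD11c cKO replicate 2, 35 without CD18 CD11c cKO replicate 1) and 0 to 35 after LPS (0 without CD18 CD11c cKO replicate 1 or 2, 11 and 15 without CD18fl/fl replicate 1 and 2). The LPS response in CD18fl/fl BMDCs gave 0 to 22 calls, and 0 to 50 with the replicate block, where 50 and 49 came without replicate 3 of the unstimulated and of the LPS-treated group. In CD18 CD11c cKO BMDCs it gave 0 to 2, and 0 to 36 with the replicate block, 36 without either replicate 3. The interaction gave 0 to 0 without and with the block. Nuclear medians ranged from 0.64 to 0.90 and from 0.45 to 0.60 between genotypes (unstimulated and LPS), from 0.035 to 0.35 and from 0.016 to 0.18 for the LPS response (CD18fl/fl and CD18 CD11c cKO) and from -0.33 to 0.010 for the interaction. Mitochondrial medians ranged from -0.84 to 0.0080, from -0.66 to 0.68, from -2.00 to -0.35, from -1.22 to -0.34 and from -0.42 to 0.94 in the same order. The difference in the log2 ratio of mitochondrial to nuclear levels ranged from -1.23 to -0.55, from -1.10 to -0.65, from -0.73 to -0.13 and from -0.82 to -0.14.

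The main limits are 3 libraries a group, of which replicate 3 stood apart in every group, and short exon lengths of most members, with which the genotype difference moved across all genes.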
